A study of Mus musculus with 18 samples.

Results

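The 42 genes described here drive and restrain the cell cycle. They were taken by name from a count table of 55335 genes and fall into 4 groups by role: 17 genes of the G1/S transition and DNA replication, 11 genes of G2 and mitosis (G2/M), 12 cyclins and cyclin-dependent kinases (CDKs), and 2 CDK inhibitors. All 42 had enough counts to be tested, among 21349 genes tested in total. The data are RNA-Seq of purified crypts of the mouse small intestine, made to study what the arginine methyltransferase PRMT1 does in the adult intestinal epithelium. Each library came from 1 mouse and was sequenced from total RNA after removal of ribosomal RNA.

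KO mice were Prmt1 fl/fl and carried Vil-CreERT2, a Cre recombinase that the villin promoter expresses in intestinal epithelial cells and that tamoxifen activates, so that cells outside the epithelium keep Prmt1. WT mice were fl/fl littermates without Cre. All mice were 8 to 12 weeks old and all received tamoxifen at 2 mg per injection, the WT mice included. Crypts were collected 2 days after the first injection, when 2 injections had been given, or after 7 or 14 days, when 5 had been given. There were 3 libraries in each of the 6 groups, 18 in all. Total counts ran from 12844642 to 31493484 per library, with a median of 16873054 for KO and 24557023 for WT at day 2, 23937724 and 20162316 at day 7, and 16251399 and 21924295 at day 14.

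A dividing cell copies its DNA in S phase and separates the copies in mitosis. Replication origins are licensed in G1 by the MCM helicase with CDC6 and CDT1, cyclins bound to CDKs carry the cell from each phase to the next, and inhibitors such as p27 (Cdkn1b) and p57 (Cdkn1c) hold these kinases back. In the intestine, division is restricted to the crypt, where stem cells and their transit-amplifying daughters cycle, while mature enterocytes, goblet cells, enteroendocrine cells and Paneth cells have left the cycle.

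Levels are given as CPM, the counts of a gene after every library is scaled to the same total, with the normalization factors of edgeR. Changes are log2 fold changes of KO against WT with their standard error (SE), and a gene is called where the Benjamini-Hochberg adjusted p of edgeR's quasi-likelihood test over all tested genes was under 0.05. Prmt1 itself was measured first, as a check of the labels. At day 2 it stood at 15.8, 13.1 and 14.3 CPM in KO and at 27.1, 26.5 and 26.1 CPM in WT. At day 7 the values were 13.6, 17.4 and 16.4 CPM in KO and 22.3, 25.9 and 23.1 CPM in WT, and at day 14 they were 16.1, 14.95 and 15.1 CPM against 25.2, 30.6 and 20.2 CPM. Every KO library lay below every WT library of its day. The log2 fold change was -0.89 (SE 0.14, edgeR adjusted p = 0.0264) at day 2, -0.59 (SE 0.14, adjusted p = 0.00675) at day 7 and -0.72 (SE 0.14, adjusted p = 0.00329) at day 14. The call at day 2 was lost without any of the 6 libraries of that day (adjusted p from 0.0816 to 0.183), with the replicate number as a block (adjusted p = 0.0531) and with only the compared groups in the model (adjusted p = 0.0939), so at day 2 the label check rests on the values of the libraries. The call at day 7 was lost without KO replicate 1 (adjusted p = 0.0655).

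Epithelial marker genes were abundant in every library, with a sum over 9 genes from 5038 to 10063 CPM and Krt8 as the most abundant. The sum over 15 immune markers was between 79.5 and 233 CPM, with Gzma highest over all libraries together, and over 12 stromal markers between 29.3 and 203 CPM, with Col3a1 highest over all libraries together and Vim highest in 8 of the 18. In WT crypts the cell cycle genes covered a wide range of levels per length. Mki67, which marks cells outside quiescence, had the highest median over the 9 WT libraries, at 54.1 CPM per kilobase of exon, with a range from 42.2 to 64.8. Top2a, the topoisomerase that untangles replicated chromosomes, followed at 37.7 (29.6 to 44.0) and Cdk4 at 34.1 (29.4 to 44.2), and the ranges of Top2a and Cdk4 overlapped nearly in full. Cdk4 shares 19.7% of its exon bases with Tspan31 on the opposite strand and the counts ignore strand, so part of its level may belong to Tspan31. At the other end stood E2f1 at 2.23 (1.73 to 2.92) and Cdkn1c at 1.32 (0.846 to 2.11) CPM per kilobase, whose ranges also overlapped.

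At day 2 none of the 42 genes was called, where 0.0328% of all tested genes were (0.0281% higher and 0.00468% lower), so that a count of 0 is what the background gives. None of the 42 reached an unadjusted p under 0.05 with edgeR at that day, where 3.33% of all tested genes did, and DESeq2 called none. The KO libraries lay above all WT libraries for 3 of the 42 (Mcm2, Cdc6 and Plk1), or below them for 1 (Cdkn1b), where this held for 4.3% and 3.86% of all tested genes and for 8.16% in either direction. Of the 42, 16 had a log2 fold change below 0, where 50.9% of all tested genes did. The median log2 fold change was 0.02 over the replication genes, 0.05 over the G2/M genes and 0.02 over the cyclins and CDKs, beside -0.00 over all tested genes. The widest changes were 0.31 for Cdc6 and -0.20 for Cdkn1b, neither of which was called.

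At day 7, 7 of the 42 genes were called, or 16.7%, close to the 17.3% of all tested genes. Plk1 and Cdkn1c were higher in KO, where 7.11% of all tested genes were, and Aurkb, Foxm1, Cdk2, Cdk6 and Cdkn1b were lower, where 10.2% were. An unadjusted p under 0.05 was reached by 9 of the 42 and by 29.9% of all tested genes. The KO libraries lay above all WT libraries for 2 of the 42 and below them for 8, where 15.9% and 17.7% of all tested genes did.

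At day 14, 8 of the 42 were called, where 7.92% of all tested genes were. Cdkn1c was again higher, where 3.23% of all tested genes were, and Top2a, Aurkb, Bub1, Bub1b, Foxm1, Ccnb2 and Cdkn1b were lower. Of all tested genes, 4.69% were called lower at day 14. An unadjusted p under 0.05 was reached by 20 of the 42 and by 21.6% of all tested genes. The KO libraries lay above all WT libraries for 2 of the 42 and below them for 15, where 12.4% and 14.1% of all tested genes did. The number called rested on single libraries at both days: it fell to 3 at day 7 without KO replicate 1 or WT replicate 1 and to 4 without WT replicate 2 or 3, and at day 14 it fell to 2 without KO replicate 2, to 4 without KO replicate 3 or WT replicate 2, and to 5 without KO replicate 1 or WT replicate 1. With the replicate number as a block and only the day 14 libraries in the model, an alternative added after the data had been seen, the number was 14 at day 14: the 8 genes named and Rrm1, Rrm2, Cenpe, Ccna2, Ccnb1 and Cdk6, all lower. With only the compared groups in the model it was 7, without Top2a (adjusted p = 0.0517) and Cdkn1b (adjusted p = 0.0520) and with Cdk6 (adjusted p = 0.0301).

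**Figure D1:**
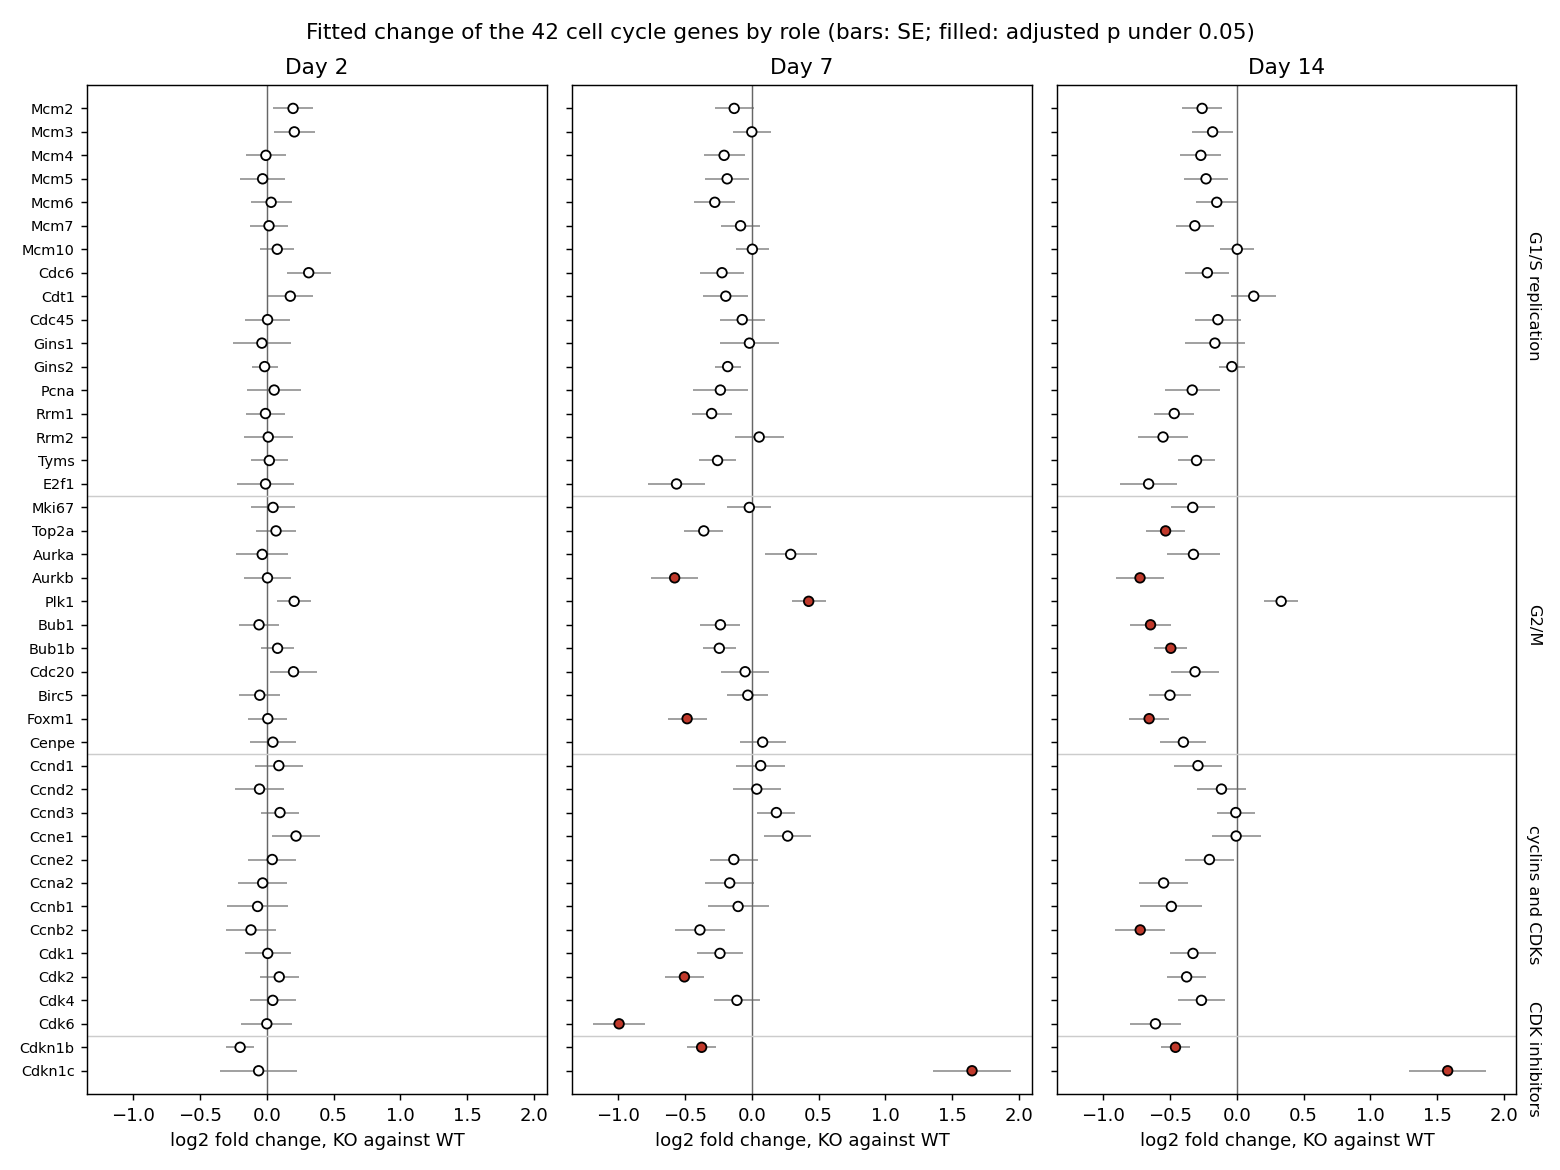
Log2 fold change of KO against WT (horizontal axis) for each of the 42 genes, grouped by role, at days 2, 7 and 14. Points are fitted values, bars are the SE, and filled points are called. Values lie close to 0 at day 2, and at day 14 most G2/M genes lie to the left of 0, with Cdkn1c far to the right at days 7 and 14.

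None of the 17 replication genes was called at day 7 or day 14 in the fit without a block, where 17.3% and 7.92% of all tested genes were. At day 14 Rrm1 and Rrm2 were called with the block and only the day 14 libraries (edgeR adjusted p = 0.0290 and 0.0157) and with no filter on low counts (adjusted p = 0.0494 and 0.0164). The median change was -0.18 at day 7 and -0.23 at day 14, beside 0.02 and 0.00 over all tested genes. With 1 library left out it ran from -0.30 to -0.04 at day 7 and from -0.35 to -0.13 at day 14. At day 7, 14 of the 17 had a log2 fold change below 0 and at day 14, 15 of 17, where 48.4% and 49.8% of all tested genes did. With edgeR, 1 of the 17 had an unadjusted p under 0.05 at day 7 and 5 did at day 14, where 29.9% and 21.6% of all tested genes did. The 6 subunits of the MCM2-7 helicase ranged from -0.28 (Mcm6) to 0.00 (Mcm3) at day 7 and from -0.31 (Mcm7) to -0.15 (Mcm6) at day 14.

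The pair of replication genes with the smallest p at day 7 were E2f1 and Rrm1. E2f1 encodes a transcription factor that switches on S-phase genes. Its day 2 values were 7.26, 5.99 and 4.88 CPM in KO and 5.45, 7.03 and 5.68 CPM in WT, which overlapped. It stood at 4.09, 5.16 and 5.33 CPM in KO and 7.77, 7.41 and 6.39 CPM in WT at day 7, and at 7.12, 4.04 and 4.38 CPM against 8.46, 9.20 and 7.04 CPM at day 14. The groups did not overlap at day 7, as for 33.6% of all tested genes, and at day 14 KO replicate 1 lay just above the lowest WT library. The change was -0.56 (SE 0.21, edgeR adjusted p = 0.0749) at day 7 and -0.66 (SE 0.22, adjusted p = 0.0672) at day 14, and without KO replicate 1 the day 14 change was -0.96 and called (adjusted p = 0.0172).

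Rrm1 encodes the large subunit of ribonucleotide reductase, which makes the building blocks of DNA. Its day 2 values were 90.1, 70.8 and 98.5 CPM in KO and 80.0, 96.1 and 85.2 CPM in WT, which overlapped. At day 7 it stood at 49.3, 70.1 and 51.4 CPM in KO and 64.9, 76.4 and 69.4 CPM in WT, with KO replicate 2 inside the WT range, and the change was -0.30 (SE 0.15, edgeR adjusted p = 0.187). Without KO replicate 2 it was -0.48 and called (adjusted p = 0.0479). At day 14 the values were 63.5, 58.5 and 57.9 CPM in KO against 80.5, 94.9 and 73.5 CPM in WT. All 3 KO libraries were then below the WT libraries, as for 26.5% of all tested genes in either direction, with a change of -0.47 (SE 0.15, edgeR adjusted p = 0.0628). Its partner Rrm2 had a change of 0.06 at day 7 and -0.55 at day 14 (adjusted p = 0.0793), which without WT replicate 3 was -0.69 and called (adjusted p = 0.0455). Pcna, the sliding clamp of the replication fork, had -0.24 and -0.33. Gins2 shares 67.3% of its exon bases with Gse1 on the opposite strand and the counts ignore strand, so its level cannot be told apart from that of Gse1.

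The G2/M genes had a median change of -0.05 at day 7 and -0.49 at day 14. At day 7, 3 of the 11 were called, or 27.3% beside 17.3% of all tested genes, Plk1 higher and Aurkb and Foxm1 lower. At day 14, 5 of the 11 were called, all lower, or 45.5% beside 7.92% of all tested genes, of which 4.69% were lower. Without KO day 14 replicate 2 none of these 5 was called (highest adjusted p = 0.118, for Top2a). Mki67 was not called at any day. At day 2 it stood at 599, 657 and 530.0 CPM in KO and 553, 648 and 528 CPM in WT. It stood at 448, 549 and 473 CPM in KO and 545, 521 and 424 CPM in WT at day 7, and at 527, 400 and 461 CPM against 652, 580 and 512 CPM at day 14. The groups overlapped at each day, and the change at days 7 and 14 was -0.02 (SE 0.16, edgeR adjusted p = 0.957) and -0.33 (SE 0.17, adjusted p = 0.256).

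Foxm1 encodes the transcription factor that turns on many G2 and mitosis genes. Its level at day 2 was 25.6, 27.5 and 25.1 CPM in KO and 23.8, 27.5 and 26.4 CPM in WT, which overlapped. It stood at 17.2, 22.2 and 23.9 CPM in KO and 33.7, 25.8 and 29.0 CPM in WT at day 7, and at 26.6, 19.3 and 22.5 CPM against 38.9, 38.1 and 31.0 CPM at day 14. Every KO library was below every WT library at days 7 and 14. The change was -0.48 (SE 0.15, edgeR adjusted p = 0.0274) at day 7 and -0.66 (SE 0.15, adjusted p = 0.00834) at day 14. The day 7 call was lost without KO replicate 1 or 2 or WT replicate 1 or 3 (highest adjusted p = 0.189), and the day 14 call without KO replicate 2 (adjusted p = 0.0612).

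Plk1 encodes a kinase of mitotic entry and spindle formation, and its change had the opposite sign to most of its group at day 14. At day 2 it stood at 42.3, 44.0 and 48.9 CPM in KO and 34.8, 41.3 and 41.3 CPM in WT. At day 7 it stood at 59.5, 68.2 and 59.4 CPM in KO and 45.4, 39.5 and 54.2 CPM in WT, and at day 14 at 67.6, 54.3 and 63.3 CPM against 48.4, 52.9 and 45.7 CPM. The KO libraries were all above the WT libraries at each day, by little at day 2, with KO replicate 2 at day 14 close to the highest WT library. The change was 0.43 (SE 0.13, edgeR adjusted p = 0.0272) at day 7, a call lost without KO replicate 2 or WT replicate 1 or 2 (highest adjusted p = 0.138), and 0.33 (SE 0.13, adjusted p = 0.128) at day 14. Plk1 shares 7.09% of its exon bases with a gene on the opposite strand, Gm44985, which had a count of 6435 over all libraries against 19234 for Plk1.

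The other G2/M genes called lower at day 14 serve the chromosomes and the spindle checkpoint. Aurkb, the kinase that corrects faulty attachments of chromosomes to the spindle, had a change of -0.58 (SE 0.18, edgeR adjusted p = 0.0292) at day 7 and -0.72 (SE 0.18, adjusted p = 0.0150) at day 14. The checkpoint kinases Bub1 and Bub1b had -0.65 (adjusted p = 0.0109) and -0.49 (adjusted p = 0.0167) at day 14, and Top2a had -0.53 (adjusted p = 0.0290). At day 7 the same 3 genes had -0.24, -0.24 and -0.36 and were not called by edgeR, while DESeq2 called Top2a (-0.36, adjusted p = 0.0487). At day 14 the call of Top2a held only without WT replicate 3 and was lost without any of the other 5 libraries (highest adjusted p = 0.118). That of Bub1b was lost without any KO library or WT replicate 2 (highest adjusted p = 0.0911), that of Aurkb without KO replicate 1 or 2 or WT replicate 2 (0.0985) and that of Bub1 without KO replicate 2 or 3 or WT replicate 1 (0.0610). The day 7 call of Aurkb held only without KO replicate 2 (highest adjusted p without another library = 0.177). Birc5, Cdc20 and Cenpe had -0.50, -0.31 and -0.40 at day 14 and Aurka had -0.32, none of them called. Birc5 was called by DESeq2 (adjusted p = 0.0485) and by edgeR with no filter (adjusted p = 0.0320) or with a mean count of at least 50 (adjusted p = 0.0415). Cenpe was called by edgeR with the replicate block and only the day 14 libraries (adjusted p = 0.0364).

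**Figure D2:**
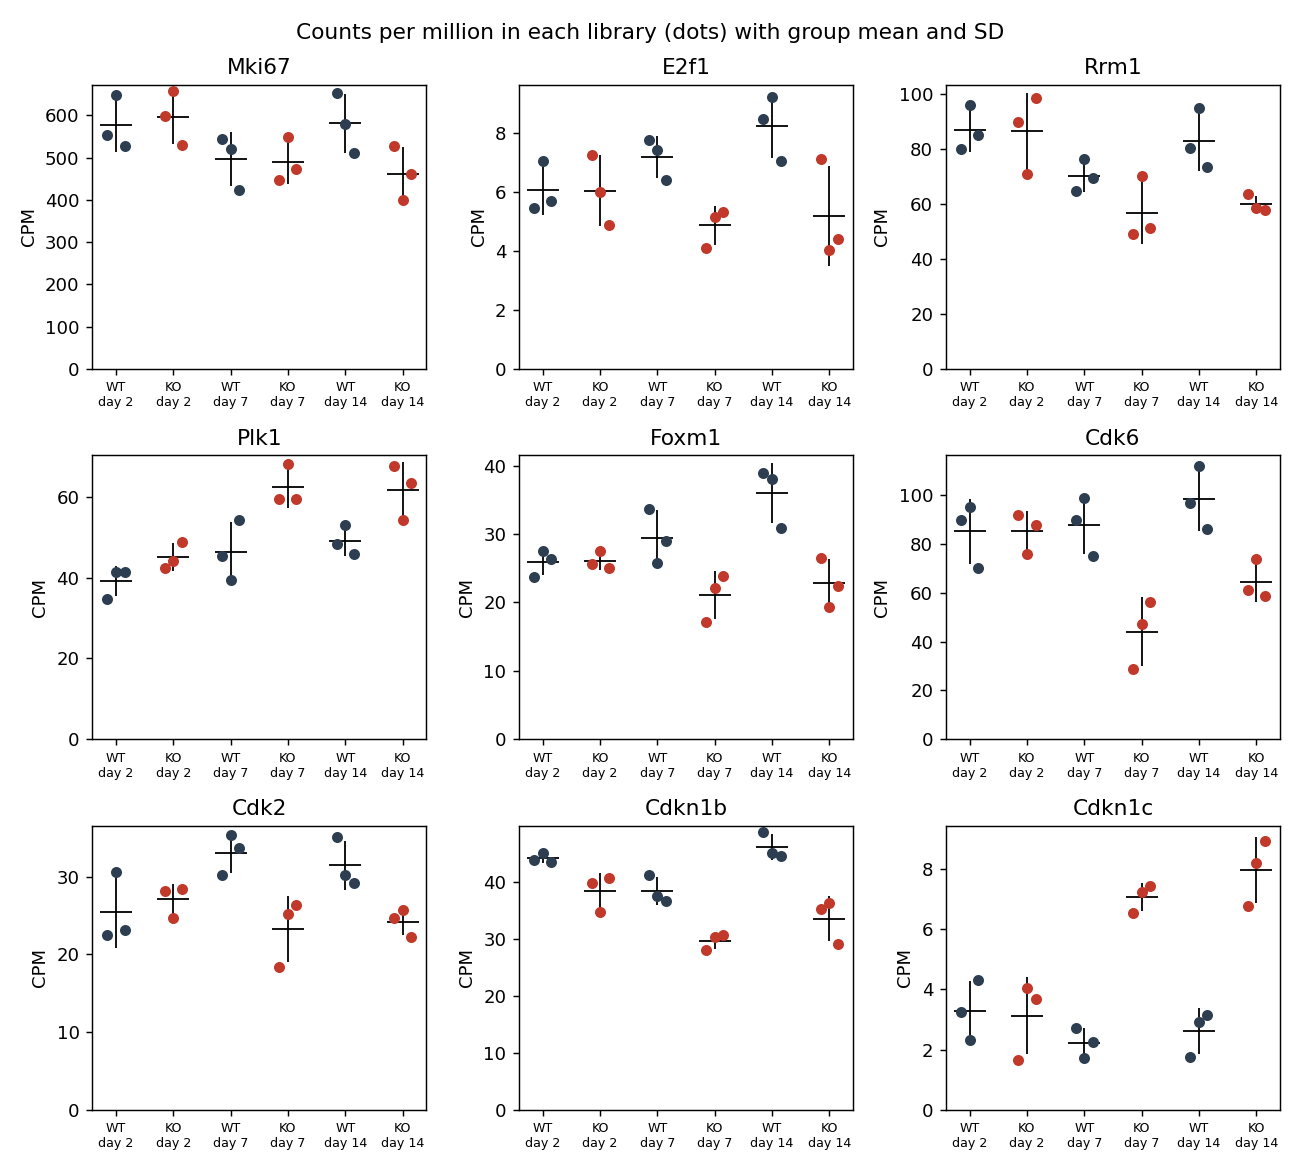
Level of 9 genes in each of the 18 libraries, in CPM (vertical axis, from 0), by group. Dots are libraries, dark for WT and red for KO, and the bar and line are the group mean and SD. At days 7 and 14 the KO libraries of Cdkn1c lie between 6.54 and 8.90 CPM, above all WT libraries, while Mki67 overlaps between the groups at each day.

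Of the 12 cyclins and CDKs, 2 were called at day 7 (Cdk6 and Cdk2) and 1 at day 14 (Ccnb2), all lower. That is 16.7% and 8.33%, beside 17.3% and 7.92% of all tested genes. At day 14 Ccna2 and Cdk6 were called as well with no filter on low counts (edgeR adjusted p = 0.0160 and 0.00532), and Ccna2, Ccnb1 and Cdk6 with the replicate block and only the day 14 libraries (adjusted p = 0.0199, 0.0499 and 0.00545), so the day 14 share depends on the model. The median change was -0.12 at day 7 and -0.31 at day 14, and at day 14 all 12 were below 0. Cdk6 is one of the kinases that cyclin D activates in G1. It stood at 28.7, 47.2 and 56.4 CPM in KO and 89.6, 98.9 and 75.1 CPM in WT at day 7, and at 61.0, 73.6 and 58.6 CPM against 96.5, 112 and 86.1 CPM at day 14. Every KO library was lower than every WT library at both days, with the lowest value of all in KO replicate 1 at day 7. The change was -0.99 (SE 0.19, edgeR adjusted p = 0.00150) at day 7, called without any of the 6 libraries of that day, and -0.61 (SE 0.19, adjusted p = 0.0584) at day 14. At day 2 the KO libraries had 91.7, 75.9 and 87.6 CPM and the WT libraries 89.8, 95.2 and 70.2 CPM, which overlapped.

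Cdk2, the partner of cyclins E and A in S phase, stood at 28.1, 24.7 and 28.4 CPM in KO and 22.4, 30.6 and 23.1 CPM in WT at day 2, which overlapped. It stood at 18.4, 25.1 and 26.3 CPM in KO and 30.3, 35.3 and 33.6 CPM in WT at day 7. At day 14 it stood at 24.7, 25.7 and 22.3 CPM in KO and 35.1, 30.2 and 29.2 CPM in WT. The groups were apart at days 7 and 14, and the change was -0.50 (SE 0.15, edgeR adjusted p = 0.0211) at day 7 and -0.38 (SE 0.15, adjusted p = 0.131) at day 14. The day 7 call was lost without KO replicate 1 or WT replicate 2 or 3 (highest adjusted p = 0.176). Ccnb2, a B-type cyclin of mitosis, had -0.39 (adjusted p = 0.170) at day 7 and -0.72 (SE 0.19, adjusted p = 0.0216) at day 14, and the latter call was lost without KO replicate 1 or 2 or WT replicate 2 (highest adjusted p = 0.131). The other mitotic cyclins had -0.55 (Ccna2) and -0.49 (Ccnb1) at day 14, and Cdk1 had -0.33, none of them called. The D-type cyclins had changes between -0.29 and 0.18 and the E-type cyclins between -0.21 and 0.27 over days 7 and 14. Ccnd1 shares 23.4% of its exon bases with LTO1 and Ccne2 shares 17.4% with Ints8, both on the opposite strand.

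The CDK inhibitors moved in opposite directions. Cdkn1c, on chr7:143458339-143461050 of mm10, stood at 6.54, 7.23 and 7.42 CPM in KO and 2.698, 1.73 and 2.23 CPM in WT at day 7, and at 6.75, 8.20 and 8.90 CPM against 1.74, 2.92 and 3.15 CPM at day 14. At day 2 it stood at 1.66, 4.05 and 3.67 CPM in KO and 3.24, 2.31 and 4.31 CPM in WT. The groups overlapped at day 2 and lay well apart at days 7 and 14. The change was -0.06 (SE 0.29, edgeR adjusted p = 0.999) at day 2, 1.65 (SE 0.29, adjusted p = 0.000626) at day 7 and 1.58 (SE 0.29, adjusted p = 0.00177) at day 14, and the calls at days 7 and 14 held without any of the 6 libraries of the day. Cdkn1c shares 30.7% of its exon bases with a gene on the opposite strand, Gm44732, and fragments there count for both. Over all libraries Gm44732 had a count of 806 and Cdkn1c 1659. The part of the shared bases in the change of Cdkn1c was not tested.

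Cdkn1b fell. It stood at 27.97, 30.2 and 30.7 CPM in KO and 41.2, 37.4 and 36.6 CPM in WT at day 7, and at 35.2, 36.3 and 29.0 CPM against 48.7, 45.0 and 44.5 CPM at day 14. At day 2 it stood at 39.7, 34.8 and 40.7 CPM in KO and 43.8, 45.1 and 43.5 CPM in WT. The KO libraries were below the WT libraries at each of the 3 days. The change was -0.20 (SE 0.11, edgeR adjusted p = 0.999) at day 2, -0.38 (SE 0.11, adjusted p = 0.0205) at day 7 and -0.46 (SE 0.11, adjusted p = 0.0114) at day 14. The day 7 call was lost without KO replicate 1 or 2 or WT replicate 1 (highest adjusted p = 0.122), and the day 14 call without KO replicate 3 or WT replicate 1 (highest adjusted p = 0.0978).

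The role groups can be set side by side in each library, as the median over their genes of log2 CPM minus the WT mean of the day. At day 14 the G2/M median was -0.41, -0.55 and -0.45 in the KO libraries and -0.02, 0.12 and -0.18 in the WT libraries, with every KO library lower. The replication median was -0.18, -0.29 and -0.19 in KO and 0.01, 0.20 and -0.22 in WT, with WT replicate 3 inside the KO range. At day 7 KO replicate 2 stood apart from the other KO libraries in both groups of genes, at 0.15 for G2/M and 0.11 for replication, where KO replicates 1 and 3 had -0.18 and -0.25 for G2/M and -0.34 and -0.26 for replication. The difference between the role groups was not tested. At day 7 the median change of the G2/M genes turned positive without KO replicate 1 (0.01) or 3 (0.03), and that of the cyclins and CDKs without KO replicate 3 (0.05).

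**Figure D3:**
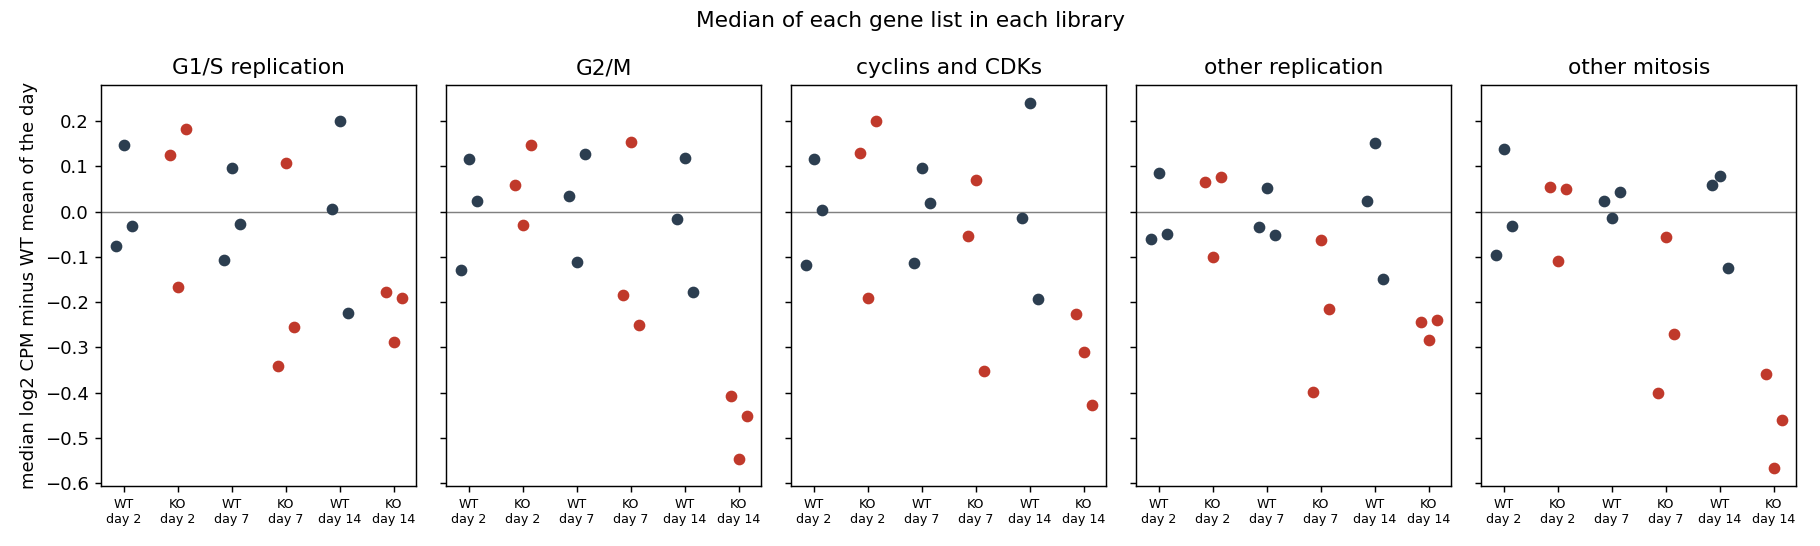
Median over each list of log2 CPM minus the WT mean of the day (vertical axis) in each of the 18 libraries, by group, for the 3 larger role groups and for further replication and mitosis genes. Each dot is a library, dark for WT and red for KO. At day 14 the KO libraries lie lowest for the G2/M and further mitosis genes, at -0.41 to -0.55 and -0.36 to -0.57.

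Whether the change differed between days was tested for each gene. Between days 2 and 7, 2 of the 42 were called, Cdk6 (difference -0.99, SE 0.27, edgeR adjusted p = 0.0427) and Cdkn1c (difference 1.71, SE 0.41, adjusted p = 0.0225), or 4.76% beside 4.37% of all tested genes (1.33% higher and 3.04% lower). An unadjusted p under 0.05 was reached by 6 of the 42, where 18.1% of all tested genes did, and 32 of the 42 differences were below 0, where 49.8% of all were. The Cdk6 call was lost in 8 of the 12 fits that left out 1 library (highest adjusted p = 0.118), and the Cdkn1c call in 3 of 12 (highest adjusted p = 0.0588). Without WT day 2 replicate 3 or WT day 7 replicate 2 none of the 42 was called, and without WT day 2 replicate 2 Cdk2 was called as well (difference -0.75, adjusted p = 0.0447).

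Between days 7 and 14 no tested gene was called, a share of 0%, and DESeq2 called none of the 42. With edgeR 3 of the 42 had an unadjusted p under 0.05, where 4.46% of all tested genes did: Rrm2, Aurka and Birc5, with differences of -0.61, -0.62 and -0.47. Of the 42 differences 36 were below 0, where 49.9% of all were. The larger number of G2/M genes called at day 14 than at day 7 is thus not a difference that the test between the days called.

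In WT none of the 42 was called between days 2 and 7, where 0.553% of all tested genes were (0.253% higher and 0.3% lower), or between days 2 and 14, where 1.61% were (0.735% higher and 0.871% lower). With edgeR 4 of the 42 had an unadjusted p under 0.05 in each, where 22.4% and 20% of all tested genes did. The libraries of the later day lay below all day 2 libraries for 9 of the 42 and above them for none at day 7, where 14.1% and 14.4% of all tested genes did (28.4% in either direction). At day 14 they lay below for 1 and above for 3, where 11.5% and 12.2% did (23.8% in either direction). The change was below 0 for 31 and 20 of the 42, where 48.8% and 48.9% of all tested genes had such a change. DESeq2 called none of the 42 between WT days 2 and 7 and 1, Foxm1, between WT days 2 and 14. Over all genes the tools differed widely here: edgeR called 118 and 343 and DESeq2 1549 and 1397. In KO none was called between days 7 and 14, where 0.0468% of all tested genes were, with 2 of the 42 (Rrm2 and Cdk6) and 9.27% of all tested genes at an unadjusted p under 0.05. DESeq2 called none of the 42, and over all genes edgeR called 10 and DESeq2 217. These comparisons share libraries with those between KO and WT.

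Further genes of the cell cycle were read from 4 lists. Of 46 other replication genes, 8 were called lower and none higher at day 7, and 7 lower and none higher at day 14, with median changes of -0.19 and -0.26. That is 17.4% at day 7, close to the 17.3% of all tested genes, and 15.2% at day 14, beside 7.92%. The 3 largest decreases at day 7 were Rfc4, a subunit of the clamp loader (-0.84, edgeR adjusted p = 0.00441), Mcm8 (-0.70, adjusted p = 0.0183) and Orc5, part of the origin recognition complex (-0.70, adjusted p = 0.00240). At day 14 they were Rpa3, which coats single-stranded DNA (-0.81, adjusted p = 0.00629), Rfc4 (-0.64, adjusted p = 0.0432) and Rfc2 (-0.64, adjusted p = 0.00108). The day 14 call of Rfc4 was lost without any of the 6 libraries (highest adjusted p = 0.187), and that of Mcm8 at day 7 without KO replicate 1 or WT replicate 1 or 2 (highest adjusted p = 0.108). Rfc4 shares 12.7% of its exon bases with Eif4a2, a highly expressed gene on the opposite strand, and Rfc2 shares 15.1% with Lat2.

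Of 64 other mitosis genes tested, 1 was called higher and 15 lower at day 7, and none higher and 30 lower at day 14, or 25% at day 7 beside 17.3% of all tested genes and 46.9% at day 14 beside 7.92%. The median change was -0.23 at day 7 and -0.46 at day 14. The inhibitory kinase of CDK1, Pkmyt1, fell at both days (-0.91, edgeR adjusted p = 0.000105, and -0.94, adjusted p = 0.000210), and it shares 8.76% of its exon bases with Paqr4 on the opposite strand, which had the higher count (18517 against 9814 over all libraries). At day 14 Melk had -0.90 (adjusted p = 0.000312) and the kinetochore gene Spc24 had -0.87 (adjusted p = 0.00458). At day 7 the kinetochore gene Cenpm had -1.05 (adjusted p = 0.0245), a call that held only without WT replicate 3 (highest adjusted p without another library = 0.0868), and the securin gene Pttg1 had 0.47 (adjusted p = 0.0459), a call lost without any of the 6 libraries (highest adjusted p = 0.194).

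Ncapd2, a condensin subunit, had the other large decrease at day 7 (-0.996, edgeR adjusted p = 0.000705), but its count is mostly not its own. An exon of Ncapd2 holds the small RNA gene Scarna10 on the same strand, and fragments there count for both genes. Over all libraries the count of Scarna10 is 77.7% of that of Ncapd2. Scarna10 itself had a change of -1.22 (SE 0.20, adjusted p = 0.000382) at day 7. The part of the Ncapd2 level that is left after subtracting Scarna10 was 48.3, 65.7 and 62.7 CPM in KO and 75.3, 68.8 and 85.5 CPM in WT at day 7. All 3 KO libraries were still below the WT libraries, with a smaller gap. At day 14 this part was 69.6, 58.2 and 68.3 CPM in KO and 91.9, 114.9 and 85.1 CPM in WT, with every KO library lower.

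Among 18 genes of the E2F family, RB and the DREAM complex, which repress or activate cell cycle genes together, 3 were called higher at day 7 and 2 lower, and at day 14 1 was called lower. That is 27.8% at day 7 beside 17.3% of all tested genes, and 5.56% at day 14, under the 7.92% of all tested genes. E2f6 was called higher as well at day 14 by DESeq2 (0.45, adjusted p = 0.0426). It was also called by edgeR without KO day 14 replicate 2 (0.61, adjusted p = 0.0121), so the day 14 share depends on the fit. E2f7, a repressor of the family, fell at both days, with 3.38, 5.51 and 5.85 CPM in KO against 14.2, 10.7 and 13.4 CPM in WT at day 7 and 6.69, 4.67 and 7.96 CPM against 15.8, 14.1 and 12.6 CPM at day 14. No KO library reached the lowest WT library at either day, and the change was -1.38 (SE 0.21, edgeR adjusted p = 0.000172) and -1.13 (SE 0.21, adjusted p = 0.00198). E2f2 had 0.83 (adjusted p = 0.00394), E2f6 0.74 (adjusted p = 0.00118), E2f3 0.40 (adjusted p = 0.0184) and Tfdp2, a dimer partner of E2F proteins, -0.44 (adjusted p = 0.00855) at day 7. The E2f3 call was lost without KO replicate 1 or WT replicate 1 or 2 (highest adjusted p = 0.0776) and the Tfdp2 call without KO replicate 1 (adjusted p = 0.0575).

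Of the 5 other CDK inhibitor genes tested out of 6, Cdkn1a (p21) was called higher and Cdkn2c (p18) lower at day 7, and Cdkn2c lower at day 14, where 17.3% and 7.92% of all tested genes were called. Cdkn1a stood at 99.3, 74.3 and 59.4 CPM in KO and 29.7, 26.01 and 38.7 CPM in WT at day 7, and at 39.7, 60.5 and 48.8 CPM against 24.9, 45.3 and 41.7 CPM at day 14. The groups were apart at day 7 and overlapped at day 14, with changes of 1.30 (SE 0.27, edgeR adjusted p = 0.00323) and 0.41 (SE 0.27, adjusted p = 0.423). With the replicate number as a block and only the day 14 libraries, chosen after the data had been seen, the day 14 change was 0.43 and called (adjusted p = 0.0424), and Cdkn1a was higher in KO in each same-numbered pair. Cdkn1a shares 7.68% of its exon bases with a gene on the opposite strand. Cdkn2c stood at 3.51, 5.48 and 4.32 CPM in KO and 10.9, 10.2 and 11.5 CPM in WT at day 7, and at 7.01, 5.74 and 7.08 CPM against 11.5, 17.1 and 12.5 CPM at day 14. The KO libraries were lower at both days, with changes of -1.29 (SE 0.19, adjusted p = 9.97e-05) and -1.06 (SE 0.18, adjusted p = 0.00116), and both calls held in all 6 fits without 1 library of the day.

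Markers of some cell types in the crypt differed between the same groups. The summed level of 9 stem cell markers was 528, 1144 and 1213 CPM in KO and 2179, 2507 and 1873 CPM in WT at day 7, with Olfm4 the most abundant, and 2013, 1768 and 1712 CPM against 2378, 2306 and 2502 CPM at day 14. Of the 9, 7 were called lower at day 7 and 2 at day 14, or 77.8% and 22.2%, where 10.2% and 4.69% of all tested genes were called lower, and none was at 0 counts in any library. The sum over 8 Paneth cell markers, with Lyz1 the most abundant at these days and none at 0, was 1412, 3976 and 3792 CPM in KO and 11164, 9004 and 14982 CPM in WT at day 7, and 7101, 7274 and 5518 CPM against 20421, 12001 and 9228 CPM at day 14. Of the 8, 7 were called lower at day 7 and 1 at day 14, or 87.5% and 12.5%. For both cell types every KO library was below every WT library at both days.

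The sum over 11 enteroendocrine markers, with Chgb highest, was 820, 711 and 662 CPM in KO and 319, 296 and 298 CPM in WT at day 7, and 906, 939 and 784 CPM against 254, 335 and 286 CPM at day 14. All 11 were called higher at both days, where 7.11% and 3.23% of all tested genes were, and none was at 0. Of the 12 enterocyte markers, 2 were called higher and 1 lower at day 7 and 1 higher at day 14, where 17.3% and 7.92% of all tested genes were called. The sum was 31815, 22032 and 20645 CPM in KO and 18059, 18495 and 14867 CPM in WT at day 7, with Apob highest over all libraries together, Sis highest in KO day 7 replicates 1 and 2 and KO day 14 replicate 1, and none at 0. Every KO library was above every WT library at day 7, also by the median over the 12 markers of log2 CPM minus the WT mean (1.05, 0.54 and 0.32 in KO and 0.05, 0.04 and -0.23 in WT). At day 14 the sum was 16360.2, 31015.5 and 22494.1 CPM against 8039.57, 16660.2 and 19852 CPM, which overlapped.

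Of the 7 goblet cell markers, Fcgbp and Clca1 were called lower at day 7 and Clca1 at day 14, beside 10.2% and 4.69% of all tested genes. The other markers were not called, and Muc2, Tff3, Spdef and Zg16 had changes above 0 at both days (0.13, 0.22, 0.47 and 0.58 at day 14). The sum over the 7, with Fcgbp highest and none at 0, was 13792, 10383 and 10616 CPM in KO and 15862, 13507 and 15919 CPM in WT at day 7, and 10611, 12550.0 and 10907 CPM against 12785, 13098 and 13025 CPM at day 14. The groups overlapped at day 7, and at day 14 the sums of the KO libraries were all lower. The level of Fcgbp alone was 5187, 6282 and 5232 CPM in KO and 6601, 8211 and 7976 CPM in WT at day 14. The median over the 7 markers of log2 CPM minus the WT mean overlapped at day 14, at -0.03, 0.11 and 0.14 in KO and 0.24, -0.15 and -0.05 in WT. Of 5 tuft cell markers tested out of 6, Dclk1 was called lower at day 7 and none at day 14, where 10.2% and 4.69% of all tested genes were called lower. Trpm5 was the most abundant in the KO libraries of days 7 and 14 and Dclk1 in all others. The sum was 23.2, 48.3 and 52.5 CPM in KO and 65.9, 66.7 and 59.2 CPM in WT at day 7, and 86.2, 89.1 and 74.9 CPM against 84.6, 70.8 and 78.1 CPM at day 14, with 1 marker at 0 in WT day 7 replicate 3, KO day 14 replicate 2 and WT day 14 replicate 3. In such bulk samples fewer cells of a type and less RNA per cell cannot be told apart, and the part of these shifts in the changes of the cell cycle genes was not tested.

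Promoters are shown to describe the role groups by the motifs known from cell cycle genes. Sequences of the 250 bases before the RefSeq start nearest to the start of the gene were taken from RefSeq on GRCm38.p6 and matched by symbol for 20783 genes of the table. They cover 14 of the 17 replication genes, 9 of the 11 G2/M genes, 8 of the 12 cyclins and CDKs and 1 of the 2 CDK inhibitors; Aurkb, Foxm1 and Cdkn1c are among those not covered. The cell cycle homology region (CHR) was searched as TTTGAA or TTCGAA, the CCAAT box as CCAAT and the E2F motif as TTTGGCGC, TTTCCCGC, TTTCGCGC or TTTGCCGC, each on both strands. A CHR match stood in 4 of the 9 G2/M promoters, beside 16.6% of all promoters, and a CCAAT match in 8 of the 9, beside 35.2%. Among the replication promoters a CHR match stood in 3 of 14 (Cdc45, Mcm2 and Mcm7) and a CCAAT match in 10 of 14, and among the cyclins and CDKs in 2 and 4 of 8. An E2F match stood in 4 of the 14 replication promoters, in 2 of the 8 of cyclins and CDKs and in none of the 9 G2/M promoters, beside 2.16% of all. The difference between the groups was not tested. Below are 30 bases around the match nearest to the start, read on the strand of the gene, with the CHR in capitals for the G2/M genes and the cyclins and CDKs that had a match.
Mki67 (chr7:135716460-135716489, minus strand): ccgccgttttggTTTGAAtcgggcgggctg
Top2a (chr11:99024195-99024224, minus strand): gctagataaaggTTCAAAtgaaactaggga
Bub1b (chr2:118598011-118598040, plus strand): tctctccctgggTTCGAAggcttgtcttag
Cdc20 (chr4:118437344-118437373, minus strand): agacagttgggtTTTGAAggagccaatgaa
Ccnb2 (chr9:70421704-70421733, minus strand): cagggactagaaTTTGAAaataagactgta
Cdk1 (chr10:69352913-69352942, minus strand): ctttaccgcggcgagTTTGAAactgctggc

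The replication genes and the cyclins and CDKs with an E2F match are shown in the same way, with the match in capitals.
Mcm5 (chr8:75109349-75109378, plus strand): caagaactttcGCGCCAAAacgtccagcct
Mcm6 (chr1:128359734-128359763, minus strand): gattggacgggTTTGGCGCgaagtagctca
Mcm7 (chr5:138172030-138172059, minus strand): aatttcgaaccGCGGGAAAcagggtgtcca
Cdc6 (chr11:98908002-98908031, plus strand): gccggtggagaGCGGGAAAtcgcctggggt
Cdk1 (chr10:69353025-69353054, minus strand): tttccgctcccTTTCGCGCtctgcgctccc
Cdk2 (chr10:128705173-128705202, minus strand): aaccaggaactGCGGGAAAgttgtgcagct
Of the genes shown with a CHR match, Top2a, Bub1b and Ccnb2 were called lower at day 14, where 4.69% of all tested genes were. Mki67, Cdc20 and Cdk1 were not called, and neither were Cdc45, Mcm2 and Mcm7, the replication genes with a CHR match. Of the members with a promoter sequence but no CHR match, Bub1 and Cdkn1b were called lower at day 14. Of the genes shown with an E2F match, Cdk2 was called lower at day 7, where 10.2% of all tested genes were. The others shown with an E2F match were not called. A match of these letters is a description of the sequence and not a site of binding.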

How the data were processed

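The authors deposited a table of counts per gene for 18 libraries, unnormalized whole numbers. Per the submitters' processing notes and the file headers, reads were aligned to mm10 with STAR 2.7.3 and counted with featureCounts 1.6.4 on GENCODE release M23, without regard to strand, with fragments over several genes counted for each; HTSeq is also named there. No column was unused.

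The 20 genes that the study removed as differing between sexes were left out before normalization. In edgeR 4.0.16 the low-count filter was filterByExpr with the 6 groups, library sizes were scaled with TMM, and tests used the quasi-likelihood method (robust, 1 mean per group, all 18 libraries; limma 3.58.1, R 4.3.3), with Benjamini-Hochberg adjustment over 21349 genes. Log2 CPM used a prior count of 2. DESeq2 1.42.0 was an alternative; the others were its size factors, the 20 most abundant genes left out, no filter, a mean count of at least 50, the sex-differing genes kept, only the compared groups, a replicate block, other groupings of the cyclins and each library left out. The fit was tested on simulated data. Python 3.11.15, numpy 2.4.6, pandas 2.3.3 and matplotlib 3.10.9 were used for sequences and plots.

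Deviations of same-numbered KO and WT libraries from their group means had correlations of 0.05, 0.16 and 0.38 at day 2, -0.16, 0.21 and 0.08 at day 7 and 0.23, 0.18 and 0.16 at day 14, so only at day 14 was every pair above 0.1; the labels do not say that a number marks a pair.

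Every called member was named, and others as examples of their role, with values in every library for Mki67, the inhibitors and, in each larger role group, the 2 with the smallest p at day 7. Every called gene was named from the further cell cycle lists of at most 18 genes. From the larger of these lists the 3 largest increases and decreases among called genes at days 7 and 14 were named. Called genes of the cell type marker lists were mostly not named. Other values were added after they were seen. The members and lists were chosen with earlier results of these data known. Depth was 12844642 to 31493484 counts per library; the spread between 3 mice sets the precision for most genes, and counting adds to it for the lowest, such as Cdkn1c.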

Additional observations from a re-analysis of the deposited data

Results flagged for a closer look

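For 6 of the genes named from the 42 and from the 4 further cell cycle lists the KO effect at day 7 differed from that at day 2 by the test of the difference itself (edgeR, adjusted over all tested genes). Over all tested genes 4.37% were called by this test. Cdk6 and Cdkn1c are of the 42. Cdkn2c, E2f6, E2f7 and Pkmyt1 were named because they were called at day 7, and the difference uses the same day 7 libraries. Their calls are thus not independent of that choice, and the number 6 cannot be read against the share over all genes. The difference in log2 fold change was -0.99 for Cdk6 (SE 0.27, adjusted p = 0.0427), 1.71 for Cdkn1c (SE 0.41, adjusted p = 0.0225), -1.20 for Cdkn2c (SE 0.26, adjusted p = 0.0109) and 0.74 for E2f6 (SE 0.20, adjusted p = 0.0390). It was -1.29 for E2f7 (SE 0.29, adjusted p = 0.0158) and -0.93 for Pkmyt1 (SE 0.19, adjusted p = 0.00732). Pkmyt1 shares 8.76% of its exon bases with Paqr4 on the opposite strand. The same test called Scarna10 (-1.07, adjusted p = 0.0366) and, of the markers highest in their lists, Lyz1 (-2.17, adjusted p = 0.0255) and Chgb (1.23, adjusted p = 0.0155). The calls of Cdkn2c and Pkmyt1 held in all 12 fits that left out 1 library, that of E2f7 was lost in 1 (without KO day 7 replicate 1, adjusted p = 0.0502), and that of E2f6 in 10 (highest adjusted p = 0.0948) and, with all libraries, with no filter on low counts (adjusted p = 0.0690). Day 2 crypts came after 2 injections and day 7 crypts after 5, so time and dose cannot be told apart. Groups of 3 were not searched for outlying samples.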

How the results depend on the processing

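The number of the 42 genes called at day 7 was 7 and stayed between 5 and 8 in 7 of the 8 alternatives that kept all libraries of the day; with only the compared groups in the model it was 3 (Aurkb, Cdk6 and Cdkn1c). At day 14 it was 8; with no filter on low counts it was 13, and with the replicate block and only the day 14 libraries, added after the data had been seen, it was 14, both including all 8. With only the compared groups it was 7, without Top2a (adjusted p = 0.0517) and Cdkn1b (0.0520) and with Cdk6. At day 7 that model lost Cdk2 (0.0527), Cdkn1b (0.0534), Foxm1 (0.0644) and Plk1 (0.0719), and the fit with no filter lost Plk1 (0.0719) and Cdkn1b (0.0965). Of the further genes, calls of Mcm8, E2f3 and Pttg1 at day 7 were lost with only the compared groups (0.0553, 0.0553 and 0.112), those of E2f3 and Pttg1 also with no filter (0.110 and 0.195), that of Pttg1 also without the 20 most abundant genes (0.0640) and with the replicate block (0.0639), and that of Rfc4 at day 14 with the replicate block (0.0634) and the size factors of DESeq2 (0.0517). DESeq2 gave 8 at day 7, adding Top2a (0.0487), and 10 at day 14, adding Birc5 (0.0485) and Cdk6 (0.0443). The replicate block over all libraries left 7 at day 7 and 8 at day 14, the same genes. For the difference between days 2 and 7 it was 2, and 1 (Cdkn1c) with only the compared groups. DESeq2 called 1 gene (Foxm1) between WT days 2 and 14, where edgeR called 0. Leaving out each library gave 3 to 6 at day 7, 2 to 9 at day 14 and 0 to 3 for the difference between days 2 and 7. The median of the cyclins and CDKs at day 7 ranged from -0.26 to 0.05 with 1 library left out, the highest being 0.052 without KO replicate 3. The cause of these shifts was not tested. No other median of a role group moved by more than the spread between libraries, and counting the cyclins with their phase moved that of the G2/M genes at day 7 from -0.05 to -0.17, within that spread. Calls of Cdk6 at day 7 and of Cdkn1c at days 7 and 14 held in all alternatives. Sex is not in the labels and was not modelled, and 3 mice per group limit which changes could be called.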
